A study of Ovis aries with 7 samples.

Results

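The nuclear genes that encode subunits of oxidative phosphorylation were followed across the cell classes of the sheep striatum, in OVT73 sheep and controls. Members were the rows of the deposited gene list whose symbol belongs to complex I (NDUFA, NDUFB, NDUFC, NDUFS and NDUFV), complex II (the SDH subunits), complex III (UQCR and CYC1), complex IV (COX4I to COX8) or complex V (ATP5F, ATP5M and ATP5P), which gave 70 of 26479 features. These rows carried 66 symbols, since NDUFB3 and ATP5MC2 each stood for 2 rows and ATP5MD for 3. NDUFA4 and its paralogue NDUFA4L2 were counted with complex IV, so that complex I had 33 rows, complex II had 2 (SDHC and SDHD), complex III had 8, complex IV had 12 and complex V had 15. SDHA, SDHB, COX4I2, COX5B, COX6A1 and COX7A2 were not analysed here because no row carried those symbols. The same held for further subunits, among them COX6C, COX7B, COX7C, NDUFA1, UQCR11 and ATP5PB. Counts and sums of a complex thus cover only the rows present.

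Single-nucleus RNA sequencing was performed on striatum from 12 sheep aged 5 years, 6 with the OVT73 transgene and 6 controls. OVT73 sheep carry a human huntingtin cDNA with an expanded CAG repeat, driven by a segment of upstream human HTT sequence, beside their own sheep gene. Nuclei were captured in droplets as 7 libraries (3 OVT73, 4 control), numbered here within each group. Each OVT73 library and control libraries 3 and 4 pooled 2 sheep, whereas control libraries 1 and 2 held 1 sheep each. Pooled sheep were not separated, so that the library was the replicate throughout.

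The 5 complexes sit in the inner mitochondrial membrane. Complexes I and II pass electrons from NADH and succinate to ubiquinone, complex III passes them on to cytochrome c, complex IV hands them to oxygen, and complex V, the ATP synthase, uses the proton gradient that the chain builds. Complexes I, III, IV and V combine subunits from the nuclear genome with subunits from the mitochondrial genome, whereas complex II is wholly nuclear in origin. Fast-spiking interneurons are known for a high demand on this pathway, and impaired respiration of the striatum is a long-standing theme in Huntington's disease research.

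The 7 libraries held 35272 barcodes, of which 33957 passed the limits on genes and mitochondrial UMIs (unique molecular identifiers, each standing for 1 captured transcript). Nuclei kept per library numbered 3231 to 8688, with 20383135 to 69181499 UMIs, and OVT73 library 1 was the deepest. Any pair of libraries shared at most 19 barcodes. The added HTT feature had 331, 62 and 27 UMIs in the OVT73 libraries (4.78, 1.54 and 0.984 CPM, counts relative to the library total) and 1, 2, 4 and 6 UMIs in the control libraries (0.0444 to 0.224 CPM). Of 28 clusters, 17 were named from marker transcripts and gave 12 classes with 30029 nuclei, and 11 stayed unnamed. In 9 classes every library held at least 10 nuclei. The D1 and D2 MSN-like classes (medium spiny neurons, the projection neurons of the striatum) both had RGS9 and PDE10A raised, with TAC1 and EBF1 raised in the first and DRD2 and ADORA2A in the second. All 4 markers of PV/Th interneurons (HS3ST2, PTHLH, PVALB and KIT) were raised in the class of that name. Members and mitochondrially encoded features were left out of the genes used for clustering.

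Together the members took 433585 UMIs. The share of UMIs on members differed by class, and it was lowest in the 3 MSN-like classes and highest in PV/Th interneuron-like, microglia-like and neuroblast-like nuclei. In D2 MSN-like, D1 MSN-like and eccentric MSN-like nuclei the summed level was 1623 ± 302, 1641 ± 291 and 1655 ± 348 CPM, relative to all UMIs of the class (SD, n = 7 libraries). It was 2154 ± 285 CPM in OPC-like nuclei (oligodendrocyte precursors), 2319 ± 188 CPM in oligodendrocyte-like nuclei and 2719 ± 206 CPM in astrocyte-like nuclei (SD, n = 7). Neuroblast-like nuclei had 3128 ± 498 CPM, microglia-like nuclei 3243 ± 176 CPM and PV/Th interneuron-like nuclei 3369 ± 725 CPM (SD, n = 7). The 3 MSN-like classes lay within each other's SD over libraries, as did OPC-like and oligodendrocyte-like nuclei, and as did the 3 highest classes. This SD leaves out that the classes share their libraries. MSN-like classes took in only clusters with a median of at least 5000 UMIs. A cluster of 804 nuclei with MSN markers below this limit had 2822 ± 1174 CPM (SD, n = 7). Median UMIs per library were 15681 to 32186 in D1 MSN-like, 12434 to 17342 in PV/Th interneuron-like and 1140.5 to 1660 in microglia-like nuclei. The part of UMIs per nucleus in these levels was not tested. The other named interneuron classes stood near the MSN-like classes. SST/NPY interneuron-like nuclei (107) had 1941 ± 374 CPM and cholinergic interneuron-like nuclei (58) had 1707 ± 519 CPM (SD, n = 7). Single libraries held as few as 8 and 4 of these nuclei. An unnamed cluster of 362 nuclei, with markers of both types raised, had 5339 ± 1514 CPM (SD, n = 7). It lay above PV/Th interneuron-like nuclei in each of the 7 libraries, at a median of 1335 to 2094 UMIs per library. The 38 mural-like nuclei had 2306 ± 682 CPM (SD, n = 7), with 1 nucleus in the smallest library.

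**Figure D1:**
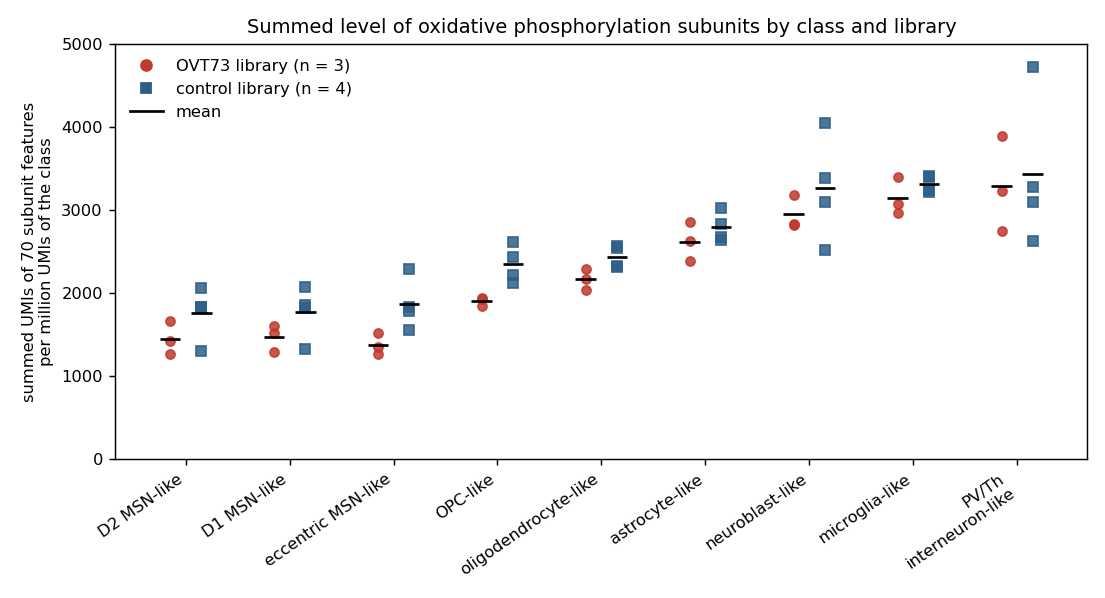
Summed level of the 70 subunit features (vertical axis, CPM, relative to all UMIs of the class) in each of 9 classes (horizontal axis), with 1 point per library (OVT73 circles, n = 3, control squares, n = 4) and a bar at each group mean. MSN-like classes lie lowest, at means of 1623 to 1655 CPM over the 7 libraries, and PV/Th interneuron-like nuclei highest, at 3369 CPM with the widest spread.

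PV/Th interneuron-like nuclei held more subunit transcript than D1 MSN-like nuclei for most members. With the library as a block, edgeR's quasi-likelihood test called 50 of the 58 members tested higher in PV/Th interneuron-like nuclei at an adjusted p under 0.05, against 31.9% of all 10476 genes tested. It called 1 member lower, against 29.9% of all genes, and the other 7 were not called. DESeq2 called 48 higher and 1 lower. The median log2 difference was 0.89 over the members and 0.04 over all genes tested. Within each library, the summed level in PV/Th interneuron-like nuclei was 2.42, 2.13 and 2.13 times that in D1 MSN-like nuclei in the OVT73 libraries and 2.28, 1.71, 1.76 and 1.98 times in the control libraries. All 7 libraries thus had the same direction.

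The difference ran through complexes I, III, IV and V. Complex IV had the widest gap, with 5 of 6 members tested higher, a median log2 difference of 1.23 and a summed level 2.17 to 3.66 times that of D1 MSN-like nuclei within a library. In complex III 7 of 8 members were higher (median 1.05), in complex V 11 of 11 (median 1.03) and in complex I 26 of 31 (median 0.75). Complex II was split between its membrane anchors, with SDHD higher and SDHC lower, and its summed level was 0.913 to 1.45 times that of D1 MSN-like nuclei.

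NDUFA4, a subunit of cytochrome c oxidase, differed most. Its level in PV/Th interneuron-like nuclei was 236, 107 and 162 CPM in the OVT73 libraries and 292, 168, 159 and 115 CPM in the control libraries. In D1 MSN-like nuclei it was 38.4, 30.9 and 37.9 CPM and 56.6, 48.2, 54.4 and 29.0 CPM. Every PV/Th value was above every D1 value, and the log2 difference was 1.79 ± 0.11 (SE, edgeR adjusted p = 1.28e-10). NDUFA11, an accessory subunit of the membrane arm of complex I, had 59.7, 34.5 and 48.4 CPM (OVT73) and 67.4, 39.6, 46.6 and 47.5 CPM (control) in PV/Th interneuron-like nuclei. In D1 MSN-like nuclei it had 11.3, 8.84 and 11.7 CPM and 14.2, 13.2, 19.2 and 11 CPM. The libraries of the classes again did not overlap, with a log2 difference of 1.72 ± 0.14 (SE, edgeR adjusted p = 3.22e-09).

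UQCR10, a small subunit of complex III, had a log2 difference of 1.67 ± 0.16 (SE, edgeR adjusted p = 3.69e-08). COX5A and COX8A, both structural subunits of complex IV, followed at 1.60 ± 0.15 (edgeR adjusted p = 5.54e-08) and 1.49 ± 0.12 (edgeR adjusted p = 5.04e-09). ATP5PF, part of the peripheral stalk of the ATP synthase, reached 1.5 ± 0.11 (edgeR adjusted p = 1.62e-09). Within complex V the difference was smaller for ATP5F1A, at 0.66 ± 0.09, than for ATP5F1B, at 1.03 ± 0.11 (SE, edgeR adjusted p = 2.18e-06 and 1.82e-07). For NDUFV1, the NADH-binding subunit of complex I, the difference was 1.32 ± 0.15 (SE, edgeR adjusted p = 4.40e-07). CYC1, the haem-bearing cytochrome of complex III, differed by 1.31 ± 0.11, UQCRC1, a core protein of the same complex, by 1.36 ± 0.14, and the Rieske iron-sulphur protein UQCRFS1 by 0.87 ± 0.11 (SE, edgeR adjusted p = 4.93e-09, 1.62e-07 and 1.02e-06).

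A few members had no such gap. NDUFS4, an accessory subunit of complex I, differed by -0.05 ± 0.07 on the log2 scale, and NDUFS1, the largest iron-sulphur subunit of complex I, by 0.01 ± 0.14. COX7A2L, which takes part in joining complexes III and IV into supercomplexes, differed by -0.05 ± 0.15 and UQCRC2, the second core protein of complex III, by 0.15 ± 0.08 (SE, edgeR adjusted p = 0.548, 0.981, 0.791 and 0.0978 in this order). The remaining members not called were NDUFB3, NDUFB4 and NDUFB5, at -0.30 ± 0.33, 0.26 ± 0.12 and -0.09 ± 0.16 (SE). SDHC had 23.4, 21.4 and 28.5 CPM (OVT73) and 33.7, 26.4, 15.5 and 22.6 CPM (control) in PV/Th interneuron-like nuclei, against 27.0, 21.5 and 21.7 CPM and 27.4, 29.2, 28.8 and 27.7 CPM in D1 MSN-like nuclei. These values overlapped, and the fitted log2 difference of -0.37 ± 0.14 (SE, edgeR adjusted p = 0.033) was not called when totals were used without TMM factors, or without OVT73 library 1, OVT73 library 2, control library 3 or control library 4.

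**Figure D2:**
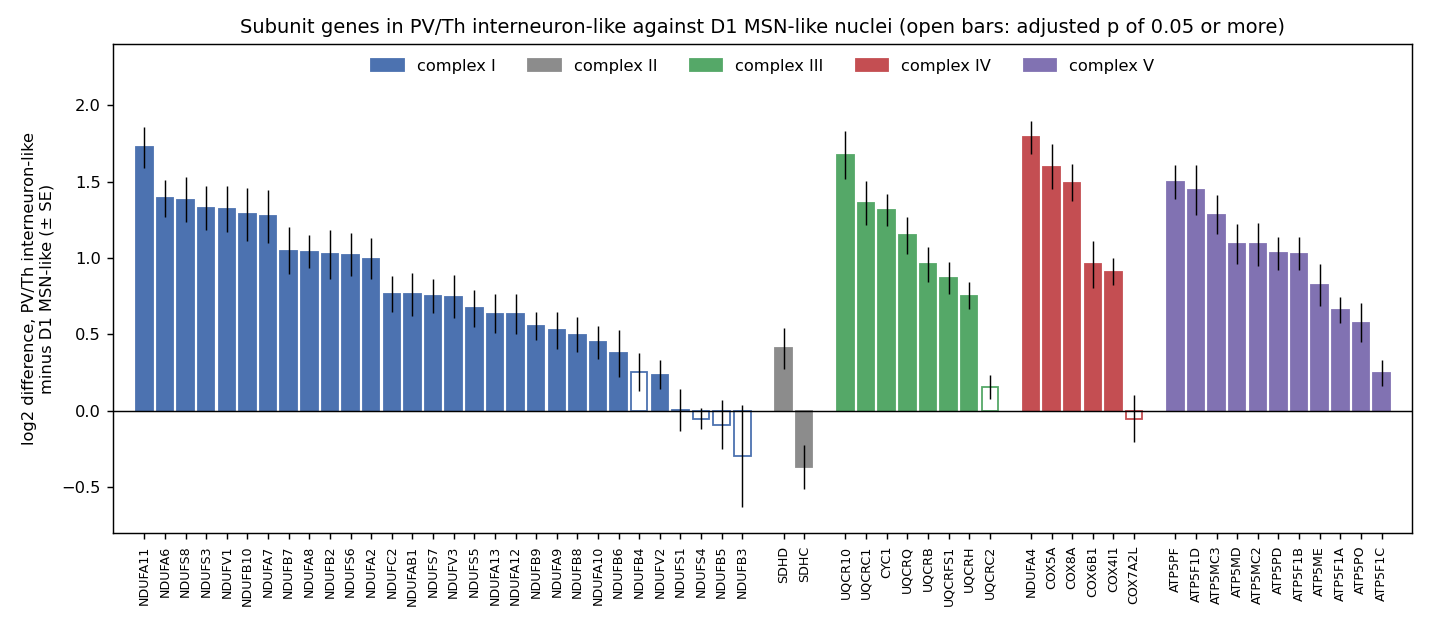
Log2 difference between PV/Th interneuron-like and D1 MSN-like nuclei (vertical axis, edgeR estimate with its SE as a thin line) for 57 of the 58 members tested, ordered by complex and size, with filled bars for an adjusted p under 0.05. NDUFA4 stands highest at 1.79, and SDHC is the filled bar below 0, at -0.37.

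Scaling mattered for the number of all genes called in this contrast but hardly for the members. Without TMM factors 53 members were higher and 0 lower, while calls over all genes shifted from 3347 higher and 3134 lower to 4951 higher and 2086 lower, and the median of all genes shifted to 0.31. Relative to the median of all genes, the members' median was 0.85 with either scaling. PV/Th interneuron-like nuclei numbered 391, with a median of 12434 to 17342 UMIs per library, against 2587 D1 MSN-like nuclei with 15681 to 32186 UMIs. Mitochondrially encoded features are 35 rows that include the partners of these subunits in complexes I, III, IV and V. Partner subunits and other mitochondrial RNAs were not separated in this set. Of 13 features tested 1 was higher and 0 lower (median -0.07). The summed level of the set was 0.969 to 1.56 times that of D1 MSN-like nuclei.

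Neighbouring gene lists were read in the same contrast as a description, since their genes were not left out of the clustering. Of 12 glycolysis genes 11 were higher and 0 lower (median 0.71), with ALDOC, GAPDH and ALDOA highest at 2.60, 1.59 and 1.58. Of 6 genes for cytochrome c, carriers and the ATP synthase inhibitor 5 were higher and 0 lower (median 0.83), among them the adenine nucleotide carrier SLC25A4 at 1.48. Assembly factors of the complexes had 16 higher and 5 lower of 34 (median 0.30), and genes of the tricarboxylic acid cycle and pyruvate dehydrogenase had 6 higher and 3 lower of 15 (median 0.26). Antioxidant enzymes had 8 higher and 2 lower of 12 (median 0.69), and cytosolic ribosomal proteins had 28 higher and 2 lower of 48 (median 0.34). Regulators of mitochondrial gene expression were divided: PPARGC1A, a coactivator of mitochondrial biogenesis, was higher by 1.11 ± 0.10 (SE, edgeR adjusted p = 6.50e-08), while 5 of 14 were lower, among them the transcription factors NRF1 at -1.43 and GABPA at -1.23.

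D1 and D2 MSN-like nuclei, the neurons of the direct and indirect pathways, had nearly equal levels. The summed level in D2 MSN-like nuclei was 0.936 to 1.03 times that in D1 MSN-like nuclei of the same library, and the median log2 difference over 58 members was -0.02. EdgeR called 1 member higher, against 6.36% of all genes tested, and 1 lower, against 6.2%. These were NDUFB4, an accessory subunit of complex I, at 0.17 ± 0.05, and UQCRH, the hinge protein of complex III, at -0.13 ± 0.05 (SE, edgeR adjusted p = 0.0241 and 0.04). DESeq2 called 0 members in either direction. NDUFB4 was not called without OVT73 library 1, OVT73 library 2 or control library 1, and UQCRH stayed called on leaving out only OVT73 library 1. Eccentric MSN-like nuclei had 0.834 to 1.17 times the summed level of D1 MSN-like nuclei, with ratios on either side of 1.

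Among glia, astrocyte-like nuclei had a summed level 1.04 to 1.28 times that of oligodendrocyte-like nuclei in the same library. After TMM scaling the members did not shift as a group, with a median log2 difference of -0.05 over 58 members. EdgeR called 12 higher, against 31.2% of all genes, and 8 lower, against 28.4% of all genes, both under the background. DESeq2 called 9 higher and 8 lower. The balance was 7 higher and 11 lower when members entered the clustering, 8 and 9 without OVT73 library 3, and 8 and 7 without OVT73 library 1. Without TMM factors 19 members were higher and 2 lower, calls over all genes shifted from 3249 higher and 2959 lower to 4109 higher and 1978 lower, and the median of all genes was 0.19. Relative to that median the members' median was -0.04 with either scaling.

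The members that differed fell on different complexes. Complex III had 4 of 8 higher and 0 lower in astrocyte-like nuclei, and its summed level was 1.29 to 1.55 times that of oligodendrocyte-like nuclei. Complex I had 4 higher and 7 lower of 30. CYC1 had 97.9, 78.8 and 58.9 CPM (OVT73) and 148, 81.6, 74.7 and 62.3 CPM (control) in astrocyte-like nuclei, and 44.3, 37.7 and 30.3 CPM and 49.2, 49.5, 37.2 and 31.6 CPM in oligodendrocyte-like nuclei. The classes did not overlap, and the log2 difference was 0.88 ± 0.11 (SE, edgeR adjusted p = 4.64e-06). COX7A1, known as the heart and muscle form of its subunit, had 17.3, 11.9 and 12.1 CPM (OVT73) and 16.9, 0.0, 20.6 and 15.1 CPM (control) in astrocyte-like nuclei, against 4.2 to 8.81 CPM in oligodendrocyte-like nuclei. Except in control library 2, with no UMI, each astrocyte-like value was above every oligodendrocyte-like value, and the log2 difference was 0.98 ± 0.25 (SE, edgeR adjusted p = 0.00329).

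ATP5PF was also higher in astrocyte-like nuclei, by 0.56 ± 0.14 (SE, edgeR adjusted p = 0.00218). Members called lower included NDUFB9 and NDUFB7, accessory subunits of the membrane arm of complex I, at -0.68 ± 0.11 and -0.58 ± 0.17 (SE, edgeR adjusted p = 6.62e-05 and 0.00843). The call on NDUFB7 was lost without TMM factors. All 13 mitochondrially encoded features tested were lower in astrocyte-like nuclei (median -0.93), while glycolysis genes had 7 higher and 0 lower of 12.

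OPC-like nuclei had a summed level 0.842 to 1.02 times that of oligodendrocyte-like nuclei, and here calls were mostly in the lower direction. EdgeR called 5 members of 59 higher, against 34.8% of all genes, and 27 lower, against 32.7%, with a median log2 difference of -0.20 (all genes, 0.00). DESeq2 called 3 higher and 24 lower. Without OVT73 library 2 the lower calls were 18 of 59. Complex IV had 5 of 7 lower, with a summed level 0.615 to 0.875 times that of oligodendrocyte-like nuclei, and complex I had 17 of 31 lower and 3 higher. NDUFB9 went the other way, with 58.8, 142 and 103 CPM (OVT73) and 92.2, 79.1, 225 and 163 CPM (control) in OPC-like nuclei, and 48.0, 69.4 and 57.9 CPM and 53.7, 57.7, 95.5 and 72.1 CPM in oligodendrocyte-like nuclei. It was higher in OPC-like nuclei within each of the 7 libraries, by 0.91 ± 0.11 on the log2 scale (SE, edgeR adjusted p = 1.19e-06).

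NDUFS4 and UQCRC2 were likewise higher in OPC-like nuclei, by 0.78 ± 0.07 and 0.43 ± 0.08 (SE, edgeR adjusted p = 6.49e-08 and 1.69e-04). NDUFB7 and NDUFB2, both of the membrane arm, were lower than in oligodendrocyte-like nuclei, at -0.73 ± 0.13 and -0.70 ± 0.15 (SE, edgeR adjusted p = 1.08e-04 and 4.77e-04). All 13 mitochondrially encoded features tested were lower in OPC-like nuclei too (median -0.995).

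**Figure D3:**
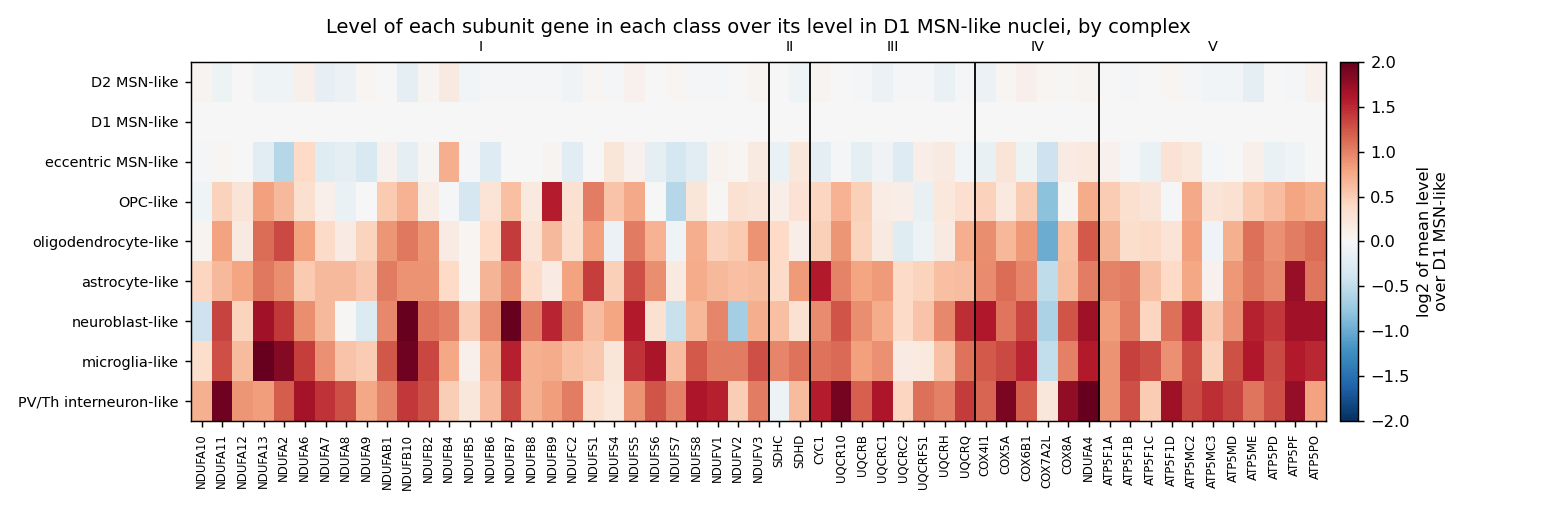
Log2 ratio of the mean level of each gene over the 7 libraries to its mean level in D1 MSN-like nuclei (colour) for 55 subunit genes tested in at least 7 classes, ordered by complex (Roman numerals), with classes in rows. The PV/Th interneuron-like row is red for most genes, COX7A2L is blue in the glial and neuroblast-like rows, and 4 values lie past the end of the colour scale at 2.

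Single subunits did not all follow the sums across classes. COX7A2L was highest in PV/Th interneuron-like, D2 MSN-like and D1 MSN-like nuclei, at 31.2 ± 12.8, 27.5 ± 4.66 and 26.8 ± 4.45 CPM, and lower in OPC-like and oligodendrocyte-like nuclei, at 15.1 ± 4.26 and 13.5 ± 2.81 CPM (SD, n = 7). COX4I1, the common form of its subunit, ran with the sums, from 45.8 ± 15.5 CPM in eccentric MSN-like nuclei and 50.5 ± 11.9 CPM in D1 MSN-like nuclei to 118 ± 14.0 CPM in microglia-like and 154 ± 76.1 CPM in neuroblast-like nuclei (SD, n = 7). Flavoprotein subunit NDUFV2 was lowest in neuroblast-like nuclei, at 35.4 ± 19.6 CPM, and highest in microglia-like nuclei, at 116 ± 17.2 CPM (SD, n = 7). NDUFA9, which binds NADPH at the junction of the arms of complex I, varied less, from 18.0 ± 3.21 CPM in eccentric MSN-like to 38.2 ± 9.71 CPM in PV/Th interneuron-like nuclei (SD, n = 7). ATP5PO, a stalk subunit of the ATP synthase, had 20.3 ± 5.96 CPM in D1 MSN-like nuclei, 35.3 ± 7.88 CPM in PV/Th interneuron-like nuclei and 57.8 ± 10.4 CPM in microglia-like nuclei (SD, n = 7).

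Apart from COX7A1, with 722 UMIs over all nuclei, isoforms with restricted tissues were scarce. Over all nuclei COX6A2 and COX6B2 had 13 UMIs each, COX8C had 4 and NDUFA4L2 had 21, whereas COX6B1 and COX8A, the common forms, had 5110 and 8521 UMIs. COX7B2 had 194 UMIs, of which D1 MSN-like nuclei held 72 and D2 MSN-like nuclei 53. Of the genes for the rotor ring of the ATP synthase, ATP5MC1 had 145 UMIs in all, whereas ATP5MC2 and ATP5MC3 had 22.9 ± 6.03 and 38.0 ± 16 CPM in D1 MSN-like nuclei (SD, n = 7). In PV/Th interneuron-like nuclei ATP5MC2 and ATP5MC3 had 56.9 ± 15.4 and 106 ± 28.8 CPM (SD, n = 7). Of the 70 rows, 59 passed the filter on low counts in at least 1 class, 34 did so in all 9, and 11 in none.

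Between OVT73 and control libraries, no member was called in any class. The mean summed level was lower in OVT73 in each class tested (log2 -0.437 to -0.064). In 3 classes every OVT73 library lay below every control library. In OPC-like nuclei the sums were 1922, 1848 and 1935 CPM in the OVT73 libraries and 2439, 2117, 2609 and 2211 CPM in the control libraries (1902 ± 46.8 against 2344 ± 222, SD). In eccentric MSN-like nuclei, a small set of projection neurons with OTOF and FOXP2 raised, they were 1514, 1352 and 1262 CPM against 2289, 1779, 1836 and 1549 CPM (1376 ± 128 against 1863 ± 310, SD). Oligodendrocyte-like nuclei had 2284, 2166 and 2041 CPM against 2542, 2315, 2563 and 2320 CPM (2164 ± 121 against 2435 ± 136, SD). The groups did not overlap in these classes on this scale, relative to totals without TMM factors. In eccentric MSN-like nuclei TMM factors were 0.94 to 0.98 in the OVT73 and 1.01 to 1.06 in the control libraries. In oligodendrocyte-like nuclei they were 0.93 to 1.00 and 0.98 to 1.08. Scaling with such factors narrows the gap, and overlap of the sums on that scale was not tested. With nuclei limited to at most 1% mitochondrial UMIs the groups overlapped in these classes. Control library 4 then had 1806, 1125 and 1604 CPM in OPC-like, eccentric MSN-like and oligodendrocyte-like nuclei. In oligodendrocyte-like nuclei control library 2, at 2141 CPM, then also lay below OVT73 library 1, at 2187 CPM. Oligodendrocyte-like nuclei also overlapped when levels were averaged over nuclei, with 2643 CPM in OVT73 library 1 and 2640 and 2637 CPM in control libraries 2 and 4.

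In D1 MSN-like nuclei the sums were 1608, 1289 and 1514 CPM in the OVT73 libraries and 2074, 1817, 1861 and 1326 CPM in the control libraries. Those of D2 MSN-like nuclei were 1657, 1269 and 1417 CPM against 2057, 1827, 1832 and 1299 CPM. Control library 4 lay among the OVT73 libraries in both classes. The groups also overlapped in PV/Th interneuron-like nuclei (2741 to 3886 CPM against 2624 to 4725 CPM), astrocyte-like nuclei (2383 to 2853 CPM against 2642 to 3027 CPM), microglia-like nuclei (2961 to 3399 CPM against 3218 to 3413 CPM) and neuroblast-like nuclei (2824 to 3185 CPM against 2514 to 4054 CPM).

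Transcripts of cytosolic ribosomal proteins, which are no part of mitochondria, were read beside the members. Their fitted median was below 0 with that of the members in D1 MSN-like (-0.34), D2 MSN-like (-0.32), eccentric MSN-like (-0.68) and OPC-like nuclei (-0.38). The same held for oligodendrocyte-like (-0.12), astrocyte-like (-0.10) and microglia-like nuclei (-0.08), where the ribosomal median was nearer 0. In PV/Th interneuron-like nuclei the ribosomal median was -0.25, with 41 of 45 genes below 0, while the members had -0.01. In neuroblast-like nuclei it was 0.01, with 22 of 40 genes above 0, while the members had -0.19. Ribosomal sums in D1 MSN-like nuclei were 1646, 1431 and 1682 CPM in the OVT73 libraries and 2860, 2355, 2584 and 1229 CPM in the control libraries, so that control library 4 was lowest. In eccentric MSN-like nuclei they were 1386, 1374 and 1061 CPM against 2661, 2176, 2233 and 1467 CPM, without overlap, and in OPC-like nuclei 2886, 2791 and 2673 CPM against 5106, 3420, 4650 and 2756 CPM. Mitochondrially encoded features did not follow this order, and control library 4 was highest in all 3 classes, at 9813, 14950 and 11680 CPM in D1 MSN-like, eccentric MSN-like and OPC-like nuclei. The part of RNA quality in the difference between the groups was not tested, and neither was the part of library depth.

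**Figure D4:**
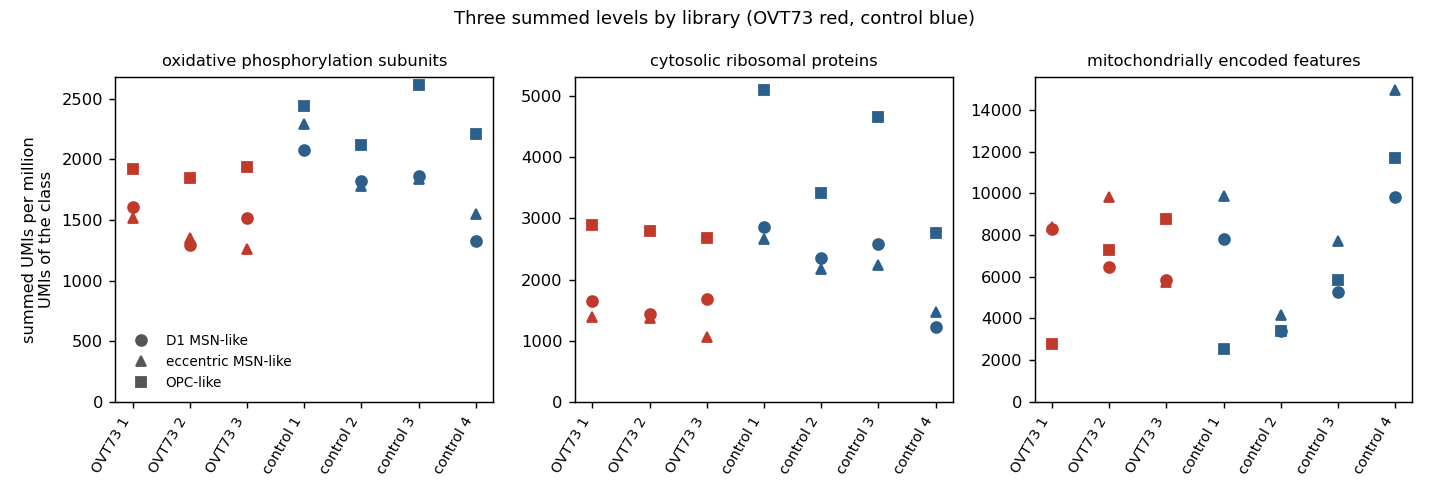
Summed level per library (vertical axes, CPM, relative to all UMIs of the class) of subunits, cytosolic ribosomal proteins and mitochondrially encoded features in 3 classes (symbols), with OVT73 libraries in red and control libraries in blue. In D1 MSN-like nuclei control library 4 lies with the OVT73 libraries for subunits (1326 CPM) and is lowest for ribosomal proteins (1229 CPM), whereas it is highest for mitochondrially encoded features (9813 CPM).

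D1 and D2 MSN-like nuclei had member medians of -0.20 and -0.20 on the log2 scale (OVT73 minus control), where all genes had -0.03 and -0.03, with 50 of 58 and 54 of 58 members below 0. EdgeR called 0 members in each class at an adjusted p under 0.05, and DESeq2 called 0, against 0% and 0% of all genes called by edgeR. At an unadjusted p under 0.05 there were 2 and 3 members, against 4.06% and 4.51% of all genes. Members with every OVT73 library below every control library numbered 1 and 0, against 2.24% and 2.79% of all genes. All members tested of complexes III, IV and V, 8, 6 and 11 in each class, had a log2 fold change below 0. Beside this, the 8 astrocyte markers summed to 348 to 388 CPM in the OVT73 and 389 to 460 CPM in the control libraries of D1 MSN-like nuclei. In D2 MSN-like nuclei they summed to 280 to 317 CPM against 338 to 373 CPM. The 4 PV/Th interneuron markers went the other way in D1 MSN-like nuclei, at 15.4 to 18.6 CPM (OVT73) against 10.3 to 15.1 CPM (control). The part of these markers was not tested.

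NDUFA6, an accessory subunit of complex I, was the member of D1 MSN-like nuclei without overlap, with 22, 17.5 and 17.6 normalised CPM (scaled with TMM factors) in the OVT73 and 25.8, 24.6, 25.3 and 23.4 in the control libraries. All 3 OVT73 values were lower than the 4 control values, with a log2 fold change of -0.38 ± 0.15 (SE, edgeR adjusted p = 0.938, exact permutation p = 0.0286, the smallest that 35 splits allow). NDUFA7, of the same complex, had 7.43, 7.24 and 8.81 against 15.3, 12.1, 11.4 and 7.82 normalised CPM, overlapping through control library 4 (log2 -0.58 ± 0.25, edgeR adjusted p = 0.938, exact permutation p = 0.0857). In D2 MSN-like nuclei NDUFS5 had 20.6, 17.3 and 18.6 against 28.6, 31.2, 25.6 and 19.2 normalised CPM, and NDUFA13 had 23.2, 17.5 and 17.3 against 26.5, 26.9, 29.9 and 20.8. Both are accessory subunits of complex I, and for both control library 4 lay within the OVT73 range (log2 -0.47 ± 0.19 and -0.42 ± 0.18, edgeR adjusted p = 0.913 for each, exact permutation p = 0.0857 for each).

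The medians in the D1 and D2 classes moved with single libraries. Without control library 1 they were -0.10 (D1) and -0.09 (D2), without control library 4 they were -0.33 and -0.33, and without OVT73 library 2 they were -0.12 and -0.12. Leaving out OVT73 library 1 gave -0.31 and -0.39. The counts at an unadjusted p under 0.05 moved further, to 17 (D1) and 11 (D2) of 58 without control library 4. They were 0 in both classes without control library 1 or OVT73 library 2, 0 for D1 without control library 3, and 0 for D2 without control library 2 or OVT73 library 3. For D1 they were 1 without control library 2 or OVT73 library 3, and for D2 5 without OVT73 library 1. The share of all genes at this threshold was not counted with libraries left out. With the control libraries of 1 sheep left out, each library pooled 2 sheep. The medians were then -0.002 (D1) and 0.02 (D2), with 30 and 26 of 58 members below 0. Scaling to totals without TMM factors moved the median of all genes to -0.13 in both classes and the members' medians to -0.31 and -0.30.

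OPC-like nuclei had a member median of -0.23 (all genes, -0.02), with 47 of 58 members below 0. EdgeR called 0 members and DESeq2 called 0, against 0.0111% of all genes called by edgeR. Counting members at an unadjusted p under 0.05 gave 6 members, all lower, against 6.79% of all genes, and 7 members had every OVT73 library below every control library, against 3.28%. These 7 were NDUFA4, COX5A, COX4I1, ATP5PD, ATP5PF, NDUFB10 and NDUFS5, of which 3 belong to complex IV. NDUFA4 had 48.4, 65.4 and 56.0 against 89.0, 87.3, 80.3 and 70.6 normalised CPM, lower in every OVT73 library (log2 -0.54 ± 0.16, edgeR adjusted p = 0.652, exact permutation p = 0.0571). COX5A had 14.9, 17.4 and 19.3 against 27.9, 27.1, 25.6 and 29.5 normalised CPM, also without overlap (log2 -0.70 ± 0.21, edgeR adjusted p = 0.655, exact permutation p = 0.0286). In libraries of 2 pooled sheep the median was -0.15. Markers moved beside these values: the 9 OPC markers summed to 16200 to 17600 CPM in the OVT73 and 15200 to 16000 CPM in the control OPC-like libraries, and the 8 MSN markers to 233 to 242 CPM against 286 to 291 CPM. Their part in the difference was not tested.

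Eccentric MSN-like nuclei had the lowest median, -0.39 (all genes, -0.01), with 48 of 54 members below 0. By either tool no member passed (edgeR 0, DESeq2 0), against 0% of all genes called by edgeR. At an unadjusted p under 0.05 there were 10 members, all lower, against 7.5% of all genes, and 8 had no overlap and were lower in OVT73, against 4.17%. Complex III had 7 of 7 members below 0 (median -0.56), complex IV 6 of 6 (median -0.39), complex V 11 of 11 (median -0.45) and complex I 23 of 28 (median -0.37). UQCRH had 51.7, 61.1 and 51.6 against 88.9, 85, 83.5 and 71.6 normalised CPM, lower in each OVT73 library (log2 -0.59 ± 0.17, edgeR adjusted p = 0.496, exact permutation p = 0.0286). ATP5ME, a small membrane subunit of the ATP synthase, had 17.4, 8.02 and 5.53 against 29.6, 18.1, 40.2 and 17.5 normalised CPM, where OVT73 library 1 and control library 4 nearly met (log2 -1.19 ± 0.42, edgeR adjusted p = 0.58, exact permutation p = 0.114). Ribosomal protein genes lay lower still, with a median of -0.68, 42 of 43 below 0 and 26 at an unadjusted p under 0.05. Astrocyte markers (8 genes) summed to 422 to 471 CPM in the OVT73 and 527 to 592 CPM in the control libraries of this class, and their part was not tested. The count of 10 became 16 of 52 members without control library 4 and 4 of 51 without control library 1. It was 4 of 53 without OVT73 library 3 and 6 of 53 without OVT73 library 2. When members entered the clustering, the class held 203 nuclei, its median was -0.46 and the count was 5 of 44. The share of all genes at this threshold was not counted in these alternatives. In the main clustering the class held 316 nuclei, 24 to 74 per library, and its median was -0.25 in libraries of 2 pooled sheep.

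Oligodendrocyte-like nuclei, the largest class with 15156 nuclei, had a median of -0.10 (all genes, -0.02), with 48 of 59 members below 0. EdgeR called 0 members and DESeq2 called 0, against 0% of all genes called by edgeR. Counting members at an unadjusted p under 0.05 gave 1 member, against 5.26% of all genes, and 2 were lower without overlap, against 3.15%. UQCRQ, a ubiquinone-binding subunit of complex III, had 23.9, 21.1 and 20.1 against 32.5, 24.2, 32.7 and 25.0 normalised CPM, a narrow gap between OVT73 library 1 and control library 2 (log2 -0.39 ± 0.17, edgeR adjusted p = 0.862, exact permutation p = 0.114). NDUFS1 had 37.2, 50.3 and 46.3 against 44.5, 47.3, 61.1 and 61.4 normalised CPM, with overlap (log2 -0.28 ± 0.17, edgeR adjusted p = 0.862, exact permutation p = 0.257). Without control library 1 the median was -0.05, without OVT73 library 3 it was -0.04, and in libraries of 2 pooled sheep it was -0.02. The 11 oligodendrocyte markers were also lower, at 8210 to 8750 CPM in the OVT73 and 8840 to 11100 CPM in the control libraries, and their part was not tested.

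PV/Th interneuron-like nuclei, where the level was highest among the named classes, had a median of -0.01 (all genes, -0.01), with 30 of 57 members below 0. By either tool no member passed (edgeR 0, DESeq2 0), against 0% of all genes called by edgeR. At an unadjusted p under 0.05 there were 0 members, against 4.11% of all genes, and 0 were lower without overlap, against 2.31%. NDUFC2, an accessory subunit of complex I, had 71.1, 54.1 and 67.6 against 64.1, 49.5, 32.5 and 40.5 normalised CPM, and NDUFA8, of the same complex, had 80.1, 77.6 and 95.6 against 87.8, 57.4, 54.2 and 69.5. Both overlapped between the groups (log2 0.46 ± 0.24 and 0.31 ± 0.20, edgeR adjusted p = 0.998 for each, exact permutation p = 0.114 and 0.171). The median moved to 0.21 without control library 1 and to 0.12 without OVT73 library 2, and it was -0.17 without OVT73 library 1 and -0.14 without control library 4. In libraries of 2 pooled sheep it was 0.24, with 11 of 57 members below 0. With equal numbers of nuclei per library it was -0.19 (all genes, -0.01), with 43 of 57 members below 0. The 4 PV/Th interneuron markers summed to 490 to 605 CPM in the OVT73 and 273 to 474 CPM in the control libraries. Their part was not tested.

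Astrocyte-like nuclei had a median of -0.04 (all genes, -0.02), with 32 of 57 members below 0. EdgeR called 0 members and DESeq2 called 0, against 0% of all genes called by edgeR. Counting members at an unadjusted p under 0.05 gave 0 members, against 4.5% of all genes, and 0 were lower without overlap, against 2.39%. NDUFC2 had 40.4, 38.0 and 24.0 against 45.1, 80.9, 36.7 and 59.0 normalised CPM, with overlap through control library 3 (log2 -0.62 ± 0.29, edgeR adjusted p = 1.0, exact permutation p = 0.2). ATP5PF had 104, 83.9 and 112 against 68.8, 67.4, 73.4 and 98.9 normalised CPM, and control library 4 lay within the OVT73 range (log2 0.37 ± 0.20, edgeR adjusted p = 1.0, exact permutation p = 0.114). Oligodendrocyte markers were high in control library 3 of this class (2510 CPM, other libraries 98.0 to 767 CPM). The 4 PV/Th interneuron markers summed to 3.84 to 6.42 CPM in its OVT73 and 12.7 to 35.9 CPM in its control libraries. The part of either set was not tested.

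Microglia-like nuclei had a median of -0.06 (all genes, -0.02), with 29 of 54 members below 0. By either tool no member passed (edgeR 0, DESeq2 0), against 0% of all genes called by edgeR. At an unadjusted p under 0.05 there were 2 members, against 4.26% of all genes, 1 in each direction. Of the members 2 were lower without overlap, against 2.55%. Another 2 of 54 were higher without overlap, where 192 of 6665 genes tested were. NDUFB9 had 32.2, 64.0 and 62.5 against 59.5, 60.4, 121 and 110 normalised CPM, so that OVT73 libraries 2 and 3 lay above control libraries 1 and 2 (log2 -0.77 ± 0.32, edgeR adjusted p = 0.998, exact permutation p = 0.286). NDUFA8 had 64.4, 50.8 and 52.8 against 36.8, 43.2, 34.6 and 41.4 normalised CPM, higher in each OVT73 library (log2 0.53 ± 0.23, edgeR adjusted p = 0.998, exact permutation p = 0.0286).

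Neuroblast-like nuclei, with the fewest UMIs of the 9 classes, allowed 34 members to be tested. Their median was -0.19 (all genes, -0.01), with 24 below 0. EdgeR called 0 members and DESeq2 called 0, against 0% of all genes called by edgeR. Counting members at an unadjusted p under 0.05 gave 1 member, against 4.38% of all genes, and 4 were lower without overlap, against 2.27%. NDUFB4 had 44.2, 52.4 and 47.5 against 117, 82.1, 57.9 and 66.7 normalised CPM, lower in each OVT73 library (log2 -0.78 ± 0.35, edgeR adjusted p = 0.988, exact permutation p = 0.0857). UQCRQ had 37.4, 26.2 and 12.9 against 51.0, 58.6, 116 and 33.3 normalised CPM, overlapping through control library 4 (log2 -1.02 ± 0.53, edgeR adjusted p = 0.988, exact permutation p = 0.114).

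**Figure D5:**
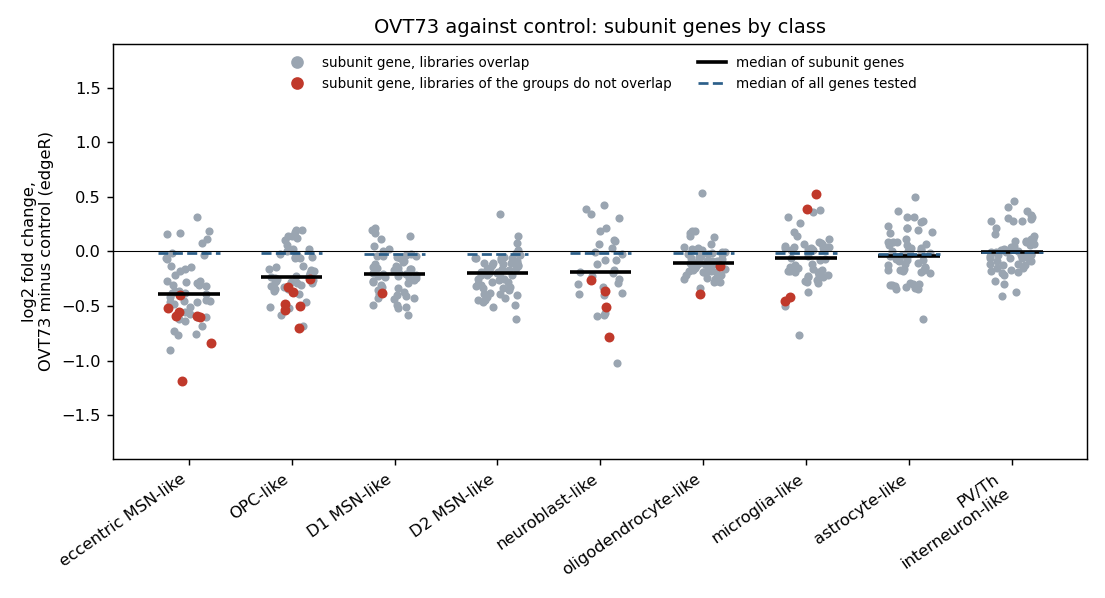
Log2 fold change of each member between OVT73 and control libraries (vertical axis, edgeR) in each of 9 classes, with the median of the members as a black line and that of all genes tested as a dashed line. Red points are members whose libraries do not overlap between the groups, and the member medians run from -0.39 in eccentric MSN-like to -0.01 in PV/Th interneuron-like nuclei.

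Across classes NDUFB10, an accessory subunit of complex I, was lower in OVT73 without overlap in 3 classes, the most among the 59 members tested. These were OPC-like, eccentric MSN-like and microglia-like nuclei, where 3.28%, 4.17% and 2.55% of all genes were lower without overlap. NDUFB10 had a fitted log2 fold change below 0 in 7 of 9 classes. The share of all genes without overlap in 3 classes was not counted. NDUFA4, ATP5PD and NDUFB9 had a fitted log2 fold change below 0 in all 9 classes, although the classes share their libraries and none of these values was called. Of the lists read beside the members, none had a gene called in any class by edgeR or DESeq2. Genes for cytochrome c, carriers and the inhibitor had medians of -0.28, -0.27, -0.20 and -0.51 in the D1, D2, OPC and eccentric classes, with 6 of 6 below 0 in each. Assembly factors had medians of -0.10, -0.03, -0.09 and -0.06 in the same classes, regulators of mitochondrial gene expression 0.00, 0.01, -0.03 and -0.06, and genes of the tricarboxylic acid cycle -0.04, -0.12, -0.01 and -0.10. Glycolysis genes had -0.07, -0.12, -0.18 and -0.15, and antioxidant enzymes -0.10, -0.09, -0.11 and -0.39. At an unadjusted p under 0.05 the lists other than ribosomal proteins had 0 to 2 genes each in any class. Cytosolic ribosomal proteins had 26 of 43 in eccentric MSN-like and 11 of 47 in OPC-like nuclei, against 7.5% and 6.79% of all genes. They had 0 to 4 in each other class.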

How the data were processed

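The authors aligned reads and counted UMIs with Cell Ranger 7.0.0 (STAR 2.7.2a per the submitters' processing notes) and deposited raw counts per gene and barcode for each library. Whether intronic reads were counted is not given in the sources used here. Groups came from the labels. Nuclei with 200 to 7500 genes and at most 5% mitochondrial UMIs were kept, and 4% of each library, those ranked first by doublet score (1358 nuclei), were left out. Free RNA was not removed. Nuclei were integrated over libraries and clustered with scanpy 1.11.5 (3000 variable genes, 30 components, 20 neighbours, Louvain resolution 1). A cluster could be named when at least 3 markers of a class were raised. MSN subtypes needed fewer subtype markers, only TAC1 and EBF1 in D1 MSN-like nuclei. Clusters stayed unnamed if over 30% of nuclei had the highest doublet scores, or if another class was raised to a comparable degree. So did those without a marker among the 50 leading genes, and MSN clusters with a median under 5000 UMIs. The members and lists were chosen with earlier results of these data known.

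Counts were summed per library and class and fitted with edgeR 4.0.16 (filterByExpr, TMM, robust quasi-likelihood), with Benjamini-Hochberg adjustment over all genes tested and a threshold of 0.05. Classes were compared with the library as a block. P-values of fold changes between groups are two-sided, and the exact permutation test enumerated the 35 splits of 7 libraries into 3 and 4 (smallest p 0.0286). DESeq2 1.42.0, no TMM factors, other factors, no filter on low counts, equal numbers of nuclei per library, no doublets removed, a limit of 1% mitochondrial UMIs, pooled libraries only, clustering with members included and leaving out each library were alternatives. Named with values were the 2 members with the smallest p between the groups in each class, a fixed set of core subunits and of isoforms, and the 3 called members with the largest fold in each direction between classes; other members named were chosen after their values were seen. A member that this rule names is not reported here by name, although it enters the counts, medians and sums. Intervals of depth cover counting error only. Scripts were tested on simulated data.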

Additional observations from a re-analysis of the deposited data

Results flagged for a closer look

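Summed levels of all members and of each complex were screened in the groups of 4 control libraries, 54 groups in all, for a library whose gap to its nearest neighbour takes up most of the range. Chance alone marks about 1 in 20 such groups, and 2 were marked. Complex II in astrocyte-like nuclei was 103.6 CPM in control library 1, which held 1 sheep, where the nearest control library had 61.81 CPM and the lowest 54.77 CPM (gap over range 0.856). Complex V in neuroblast-like nuclei was 520.1 CPM in control library 2, also of 1 sheep, where the nearest had 765.2 CPM and the highest 810.8 CPM (gap over range 0.843).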

How the results depend on the processing

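The called differences between classes were followed for 18 members and contrasts, among the largest, and none of these changed sign in 180 alternatives, of which 18 lost the call. Between the groups 0 members were called under each of the 146 alternatives. Of 146 member medians, 140 moved by less than the SD of the log2 summed level over libraries (0.074 to 0.32), a wide margin that takes in the shifts of D1, D2 and PV/Th medians given above. The astrocyte-like median was -0.17 with the larger astrocyte cluster only (an alternative chosen after seeing the data, as was adding the low-UMI cluster to D1 MSN-like nuclei) and -0.149 to 0.011 on leaving out 1 library. The microglia-like median was 0.02 without the filter on low counts, the neuroblast-like median 0.125 without it and -0.45 at 1% mitochondrial UMIs (1 member tested), and the oligodendrocyte-like median -0.017 with pooled libraries only. Between D2 and D1 MSN-like nuclei DESeq2 called 0 higher and 0 lower, omitting TMM gave 0 lower, and leaving out 1 library gave 0 to 1 higher and 0 to 2 lower. Between PV/Th interneuron-like and D1 MSN-like nuclei 0 were lower without TMM and 0 to 1 on leaving out 1 library. Between astrocyte-like and oligodendrocyte-like nuclei 7 were higher and 11 lower when members entered the clustering, 8 to 13 were higher and 6 to 9 lower on leaving out 1 library, and 19 were higher and 2 lower without TMM. Between OPC-like and oligodendrocyte-like nuclei 3 were higher under DESeq2, with members in the clustering and without TMM, and 3 to 6 higher and 18 to 27 lower on leaving out 1 library. Sums averaged over nuclei were 2992, 3451 and 2652 CPM in astrocyte-like, microglia-like and oligodendrocyte-like nuclei, and at 1% mitochondrial UMIs the latter 2 had 2784 and 1991 CPM. The cause of these shifts was not tested. No paired analysis was possible because the replicate numbers of the groups do not tie libraries to each other. With 3 against 4 libraries and pooled sheep, members below about 10 CPM in small classes rest on few UMIs.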

Other observations

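Some members stood apart in a library across classes, and these were picked after their values were seen, among members with more than 300 UMIs in the oligodendrocyte, OPC, D2 and D1 classes. UQCRB, a small subunit of complex III, was highest in control library 1, by more than 1.3 times every other library in 4 of 4 classes, with 61.5 CPM in D1 MSN-like nuclei against 20.6 to 39.0 CPM. ATP5MC3, a gene for the rotor ring of the ATP synthase, was highest in control library 2 in 3 of 4 classes, with 70.7 CPM in D1 MSN-like nuclei against 23.1 to 45.9 CPM. NDUFB9 was highest in control library 3 in 3 of 4 classes. Control libraries 1 and 2 held 1 sheep each.

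Outside the named classes, an unnamed cluster of 362 nuclei, with markers of both SST/NPY and cholinergic interneurons raised, had 3511 to 7824 CPM of subunit transcript per library. A cluster of 804 nuclei with MSN markers and few UMIs had 1550 to 4536 CPM.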
